A study of Mus musculus with 10 samples.

Results

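Heat shock chaperones were followed in pancreatic tumour epithelium of KPFSR mice, which are engineered to develop ductal adenocarcinoma, as 10 genes picked by symbol: Hspa1a, Hspa1b, Hspa8, Hsph1, Bag3, Dnajb1, Dnaja1, Hsp90aa1, Hspd1 and Hspe1. All 10 were listed among the 15624 genes of the count table, and all 10 passed the filter on low counts. RNA-seq libraries came from epithelium cut out of frozen sections by laser capture microdissection, from mice given tamoxifen (n = 6) or the vehicle corn oil (n = 4). The labels give both groups the same genotype name, KPFSR. As the model is known from its publication and not from the labels, all of these tumours carry mutant Trp53 switched on in the pancreas by Flp recombinase, floxed alleles of the cystine transporter gene Slc7a11, and a Cre recombinase that tamoxifen activates, so the groups differ in tamoxifen and in what it makes Cre delete. The sources used here do not give age, dose, time on treatment or the animal behind each library. P-values therefore measure the spread between these libraries and are too small if libraries of a group share an animal.

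Heat shock chaperones keep proteins folded. HSP70 proteins clamp onto exposed hydrophobic stretches of unfolded proteins. J-domain co-chaperones deliver these clients and trigger ATP hydrolysis, exchange factors reset HSP70 by releasing ADP, and HSP90 takes over clients close to their folded state. HSP60 and HSP10 form a closed folding chamber inside mitochondria. Heat, oxidants and proteotoxic stress release the transcription factor HSF1, which binds heat shock elements, inverted repeats of the letters GAA, and raises the inducible members within minutes to hours.

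Promoter windows from RefSeq on GRCm38.p6, 250 bases before to 50 after each start site, were available for 8 of the 10 genes and are shown for gene pairs whose windows are near-identical or shared. Capitals mark letters of heat shock elements. The motifs searched were GAANNTTC and TTCNNGAA (2 units, each reading the same on both strands) and GAANNTTCNNGAA with its reverse complement TTCNNGAANNTTC (3 units, which contain the shorter motifs). A 2-unit motif stood in at least 1 window of 7 of the 8 genes, against 17% of all 27025 genes in the table (15.1% of its 32851 windows). A 3-unit motif stood in windows of 3 genes, Hsph1, Hspd1 and Hspe1, against 0.662% of all genes (0.603% of windows). These genes are not independent. The matches of Hspd1 and Hspe1 are the same stretch read on opposite strands, and the windows of Hspa1a and Hspa1b are near-identical. All 10 genes were also picked as heat shock genes, so the shares are a description. Hspa1a (chr17:34972107-34972406, minus strand) and its neighbour Hspa1b (chr17:34959189-34959488, minus strand), genes with 9.95 kb between them, have windows that differ at 4 of 300 bases:
Hspa1a: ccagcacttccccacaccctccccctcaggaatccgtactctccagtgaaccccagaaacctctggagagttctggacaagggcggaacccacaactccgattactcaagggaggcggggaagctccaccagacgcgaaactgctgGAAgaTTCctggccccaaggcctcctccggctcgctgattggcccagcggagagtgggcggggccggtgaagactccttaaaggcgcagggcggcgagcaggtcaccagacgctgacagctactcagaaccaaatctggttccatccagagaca
Hspa1b: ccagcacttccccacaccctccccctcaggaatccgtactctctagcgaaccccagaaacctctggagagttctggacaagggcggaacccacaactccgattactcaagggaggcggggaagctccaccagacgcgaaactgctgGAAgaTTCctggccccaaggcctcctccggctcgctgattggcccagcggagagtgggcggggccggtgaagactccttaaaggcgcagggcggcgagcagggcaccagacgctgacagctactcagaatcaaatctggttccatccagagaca
Hspe1 (chr1:55087898-55088197, plus strand) and Hspd1 (chr1:55087883-55088182, minus strand) are transcribed away from each other from starts 216 bases apart. A further RefSeq start of Hspd1 lies inside Hspe1, so that the genes overlap from there, and its window held no match. The divergent windows share 285 bases and hold a run of 4 alternating units. Runs of 4 units, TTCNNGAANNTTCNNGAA or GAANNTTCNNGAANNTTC, stood in 8 of all windows (0.0244%). The whole Hspe1 window, which contains the shared stretch, is printed on the Hspe1 strand:
Hspe1: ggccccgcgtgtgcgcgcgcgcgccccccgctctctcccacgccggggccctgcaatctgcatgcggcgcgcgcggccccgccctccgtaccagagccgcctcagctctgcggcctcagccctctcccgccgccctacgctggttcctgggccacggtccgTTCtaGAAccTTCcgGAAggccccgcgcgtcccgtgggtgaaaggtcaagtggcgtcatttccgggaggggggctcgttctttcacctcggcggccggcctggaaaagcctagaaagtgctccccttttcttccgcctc
For comparison, 30 bases around the element are given for Hsph1 (chr5:149636287-149636316, minus strand, 3 units) and Dnaja1 (chr4:40722333-40722362, plus strand, 2 units):
Hsph1: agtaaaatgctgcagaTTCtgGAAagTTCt
Dnaja1: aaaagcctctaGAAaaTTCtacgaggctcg
A match describes letters in these windows and is not a measured site. No match was found in the windows of Dnajb1.

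Libraries held 6899347 to 19462115 counts with tamoxifen and 16473902 to 36132316 with corn oil. Replicate numbers used here are not from the labels but follow the order in which the libraries of each group are listed. Levels are normalised CPM, that is, counts relative to library size after scaling by TMM factors. Tamoxifen replicates 1 to 3 were more alike than any other libraries, with a correlation of log2 CPM across genes (Pearson's r) of 0.921 to 0.963, against at most 0.878 for any other pair. Whether they come from a single animal is not in the labels. Slc7a11 stood at 5.90 to 19.3 normalised CPM with tamoxifen and 23.2 to 40.1 with corn oil, so the groups did not overlap, though its log2 fold change of -1.41 (SE 0.44) had an edgeR adjusted p of 0.311. All 8 epithelial markers were measured, with Krt18 and Krt19 the most abundant, and summed to 13885 to 24677 normalised CPM with tamoxifen and 14091 to 30067 with corn oil. Of 10 fibroblast markers, all measured, the sum was 133 to 1052 with tamoxifen and 126 to 467 with corn oil, highest in tamoxifen replicate 4. The 9 measured of 10 macrophage markers summed to 824 to 2194 with tamoxifen and 950 to 1418 with corn oil. These sums mix genes of opposite direction. Log2 fold changes of tamoxifen over corn oil were above 0 for 2 of the 9 and below 0 for 7 (median -0.42). Cd14, the most abundant, averaged 783 (SD 88.0) with tamoxifen and 405 (SD 138) with corn oil, without overlap. Its log2 fold change was 0.95 (SE 0.25, edgeR adjusted p 0.227). Lyz2 averaged 289 (SD 283) with tamoxifen and 388 (SD 101) with corn oil. Endothelial markers stayed at or below 34.3 with tamoxifen and 36.4 with corn oil, and lymphocyte markers at or below 1.80 with tamoxifen and 0.322 with corn oil. Islet markers summed to at most 0.0871 with tamoxifen and to 2.54 to 213 with corn oil, with Ins2 at 0 in every tamoxifen library. Neutrophil markers summed to 5.90 to 129.7 with tamoxifen and 3.20 to 160.4 with corn oil, and acinar markers to 33.1 to 86.9 with tamoxifen and 17.2 to 204 with corn oil. By Xist and Ddx3y, 1 tamoxifen library was female and 5 male, and 2 corn oil libraries were female and 2 male. The part of these differences in the results below was not tested. In bulk tissue, fewer cells of a type and less RNA per cell cannot be told apart.

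The 10 genes took 0.137% to 0.253% of all counts with tamoxifen and 0.113% to 0.207% with corn oil. Per kilobase of the main annotated transcript, Hspa8 averaged 305 ± 93.0 normalised CPM per kb with tamoxifen and 193 ± 63.2 with corn oil (SD, n = 6 and n = 4). Hspe1 averaged 191 ± 51.2 per kb with tamoxifen and 215 ± 65.0 with corn oil. These were the most abundant of the 10, Hspa8 ahead in the tamoxifen mean and Hspe1 in the corn oil mean, and Hspa8 exceeded Hspe1 in 6 of 10 libraries. Hsp90aa1 and Hspd1 came next, with 111 ± 22.3 and 107 ± 32.6 per kb with tamoxifen and 90.1 ± 27.5 and 91.2 ± 37.3 with corn oil. Their order was likewise unsettled, at 5 of 10 libraries each way. Hspe1 exceeded Hsp90aa1, and Hspd1 exceeded Dnajb1, in 10 of 10 libraries. Dnajb1 averaged 44.3 ± 14.2 per kb with tamoxifen and 32.9 ± 6.17 with corn oil and exceeded Bag3 in 9 of 10. Bag3 and Hspa1b had nearly equal levels over the 10 libraries, with geometric means of 26.3 and 25.96 per kb. Dnaja1, Hsph1 and Hspa1a were lowest, at 14.2, 10.6 and 7.28 per kb in the same measure, and Dnaja1 exceeded Hsph1, and Hsph1 exceeded Hspa1a, in 7 of 10 libraries each. Within libraries the stress-inducible Hspa1a was at 0.00998 to 0.0633 of the constitutive Hspa8 per kb with tamoxifen. With corn oil Hspa1a was at 0.0120 to 0.0893 of Hspa8. The inducible Hspa1b stood nearer to it, with a ratio of Hspa8 to Hspa1b per kb of 5.86 to 24.6 with tamoxifen. That ratio was 3.85 to 24.0 with corn oil. These genes share sequence with other genes, as given below, which limits such ratios. Lengths are approximate, since several of these genes have isoforms of different length. Hspe1 is 0.774 kb by its main transcript and 1.474 kb by all its exons merged. By merged exons Hspd1 ranked before Hsp90aa1, and Hspa1a before Hsph1. The counts of libraries given here hold for the transcript length only.

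In edgeR's quasi-likelihood test of tamoxifen against corn oil none of the 10 genes passed an FDR of 0.05, where 0.0384% of 13006 tested genes passed. None reached an unadjusted p under 0.05, against 9.7% of tested genes. No gene had groups that did not overlap, against 3.23% of tested genes. Log2 fold changes of tamoxifen over corn oil were above 0 for 7 genes and below 0 for 3, with a median of 0.27 against -0.01 over all tested genes. DESeq2 likewise called 0 of the 10, against 1.89% of all genes it tested, with 1 at an unadjusted p under 0.05, against 12% of genes. Limma voom with sample quality weights called 1, Hspa8, against 9.62% of tested genes. It had 3 of the 10 at an unadjusted p under 0.05, against 26.9%, so both counts are near the share over all genes. Values past no threshold do not show equal levels, and the intervals below give the differences these libraries allow.

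**Figure D1:**
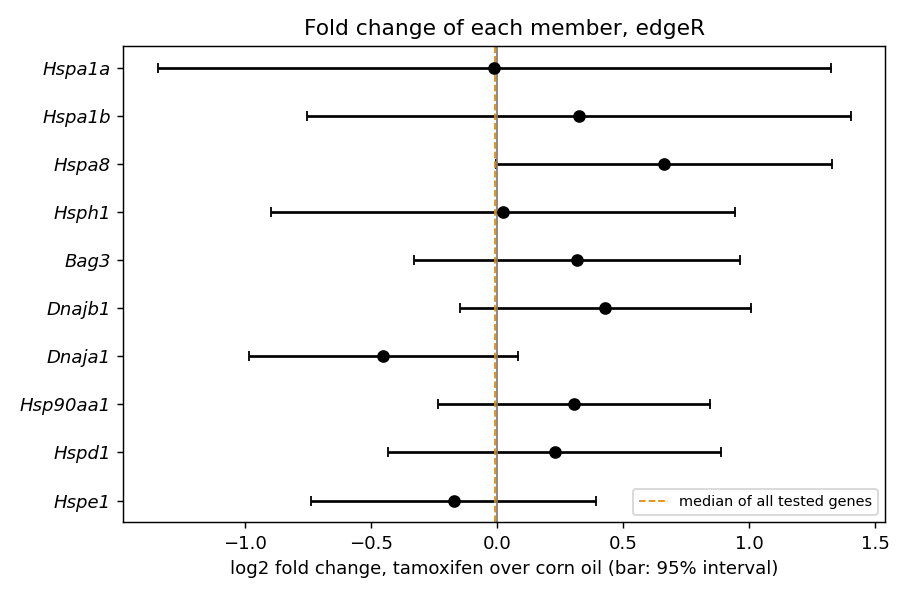
Log2 fold change of each gene, tamoxifen (n = 6) over corn oil (n = 4), from edgeR. Points are estimates and bars 95% intervals, and the dashed line is the median of all tested genes. Every interval crosses 0, with Hspa8 at 0.66 and Dnaja1 at -0.45 the farthest from it.

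Hspa8, the constitutive HSC70 that folds new proteins and uncoats clathrin vesicles, ran from 388 to 934 normalised CPM with tamoxifen, with a median of 798. Hspa8 levels with corn oil were 412, 300.1, 472 and 661 in replicates 1 to 4. Tamoxifen replicates 1, 2, 3 and 5 lay above every corn oil library, while tamoxifen replicate 6 lay above corn oil replicate 2 alone. For Hspa8 the log2 fold change was 0.66 (SE 0.31, 95% interval -0.01 to 1.33), with an unadjusted edgeR p of 0.0516 and an adjusted p of 0.517. Leaving out tamoxifen replicates 1 to 3 gave 0.27, and summing those 3 to 1 sample gave 0.49. In limma voom, which gave tamoxifen replicates 2 and 3 weights of 5.49 and 3.87 and no other library more than 1.69, it was 0.98 with an adjusted p of 0.0177.

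Hspa1a and Hspa1b, intronless genes of chromosome 17 that encode near-identical inducible HSP70, varied most of the 10. Hspa1a ran from 6.66 to 57.7 normalised CPM with tamoxifen, with a median of 22.8. Hspa1a levels with corn oil were 18.4, 33.2, 7.01 and 50.1 in replicates 1 to 4. The ranges of both groups nearly coincide, and tamoxifen replicate 4 and corn oil replicate 3 were lowest. For Hspa1a the log2 fold change was -0.01 (SE 0.62, 95% interval -1.34 to 1.32, edgeR adjusted p 0.999), so that changes of 2-fold in either direction lie inside the interval. It was -0.35 if tamoxifen replicate 5 was left out and 0.47 if corn oil replicate 4 was.

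Hspa1b ran from 25.6 to 187 normalised CPM with tamoxifen, with a median of 85.5. Hspa1b levels with corn oil were 89.4, 91.2, 23.1 and 93.4 in replicates 1 to 4. The same libraries, tamoxifen replicate 4 and corn oil replicate 3, were lowest, and the other 3 corn oil libraries were almost equal. For Hspa1b the log2 fold change was 0.32 (SE 0.50, 95% interval -0.75 to 1.40, edgeR adjusted p 0.908). Leaving out corn oil replicate 3 or tamoxifen replicate 2 gave 0.03, and leaving out tamoxifen replicate 4 gave 0.52. With tamoxifen replicates 1 to 3 all left out it was -0.15. Hspa1a and Hspa1b spread over 8.67-fold and 8.10-fold between their lowest and highest libraries, against 1.95-fold to 3.62-fold for the other 8.

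Counts of this pair are uncertain as separate values. Of 2918 distinct stretches of 50 bases in Hspa1a transcripts, 66.3% also occur in transcripts of other genes, mostly Hspa1b, and of 2754 in Hspa1b transcripts 62.3% occur elsewhere. The sources used here do not say how reads that map to several places were treated. The same limit holds for Hsp90aa1, Hspa8 and Dnaja1, with 47.5%, 39.4% and 20.6% of their stretches in transcripts of other genes. Exons of Hspa1a also overlap Gm20481 on the opposite strand. Hspa1b held more counts than Hspa1a in 10 of 10 libraries. The ratio of Hspa1b to Hspa1a counts per kb was 2.09 to 6.92 with tamoxifen, with a median of 4.32. With corn oil it was 5.14, 2.91, 3.48 and 1.97 in replicates 1 to 4, so the ranges overlapped. Both genes were also counted as 1, a choice made once the data had been seen. Their sum was 119.9 ± 67.8 normalised CPM with tamoxifen and 101 ± 49.8 with corn oil (SD, n = 6 and n = 4). Its log2 fold change was 0.24 (SE 0.50, edgeR adjusted p 0.938).

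**Figure D2:**
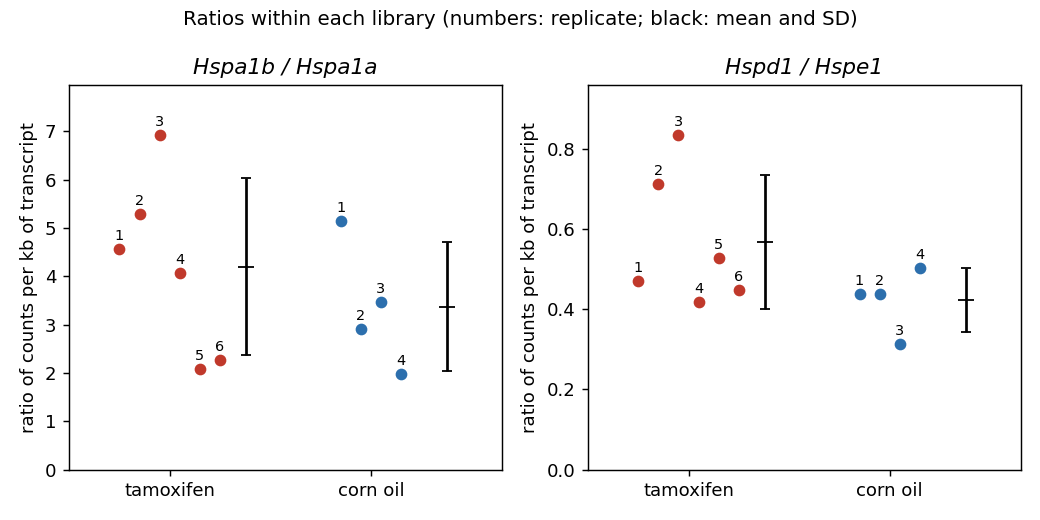
Ratio of counts per kb of transcript within each library for Hspa1b over Hspa1a (left) and Hspd1 over Hspe1 (right). Points are libraries numbered by replicate, tamoxifen left and corn oil right in each panel, and black bars are mean and SD. Hspa1b exceeded Hspa1a in every library, and tamoxifen replicates 2 and 3 stood highest for Hspd1 over Hspe1.

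Exchange factors reset HSP70. Hsph1 (HSP110), which also holds unfolded proteins in solution, ran from 20.4 to 61.7 normalised CPM with tamoxifen, with a median of 51.0. Hsph1 levels with corn oil were 52.8, 23.4, 25.2 and 73.9 in replicates 1 to 4. In both groups the libraries fell into a higher and a lower set, tamoxifen replicates 4 and 6 and corn oil replicates 2 and 3 being low. For Hsph1 the log2 fold change was 0.02 (SE 0.43, 95% interval -0.90 to 0.94, edgeR adjusted p 0.996), and its sign changed with the libraries left out. It was -0.19 if corn oil replicate 2 was dropped and 0.40 if corn oil replicate 4 was.

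Bag3, which couples HSP70 to small heat shock proteins and selective autophagy, ran from 56.7 to 119 normalised CPM with tamoxifen, with a median of 71.8. Bag3 levels with corn oil were 72.5, 80.4, 53.6 and 38.8 in replicates 1 to 4. Tamoxifen replicate 4, low for Hspa1a, Hspa1b and Hsph1, was the highest for Bag3, and corn oil replicate 4, above the mean of 8 genes, was the lowest. That tamoxifen library also had the highest sum of fibroblast markers (1052 normalised CPM) and of macrophage markers (2194), whose part in the value was not tested. For Bag3 the log2 fold change was 0.32 (SE 0.30, 95% interval -0.33 to 0.96, edgeR adjusted p 0.813), and 0.14 without tamoxifen replicate 4.

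The J-domain proteins Dnajb1 and Dnaja1 (both HSP40 class, of the B and A types that pass different clients to HSP70) had log2 fold changes of opposite sign, neither past the test. Dnajb1 ran from 88.5 to 213 normalised CPM with tamoxifen, with a median of 122. Dnajb1 levels with corn oil were 109, 106, 70.8 and 108 in replicates 1 to 4. Of the 6 tamoxifen libraries 5 were above every corn oil library, and tamoxifen replicate 1 was below 3 corn oil libraries. For Dnajb1 the log2 fold change was 0.43 (SE 0.27, 95% interval -0.15 to 1.01, edgeR adjusted p 0.668), and 0.24 without tamoxifen replicate 6, the highest and shallowest library. Other choices raised it, to 0.64 without tamoxifen replicates 1 to 3 and 0.56 with those summed to 1 sample. With sex as a covariate it was 0.58 (unadjusted edgeR p 0.0306, adjusted p 0.472).

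Dnaja1 ran from 62.8 to 86.0 normalised CPM with tamoxifen, with a median of 70.3. Dnaja1 levels with corn oil were 78.8, 67.3, 108 and 138 in replicates 1 to 4. The tamoxifen libraries were the most even of any gene here, with a coefficient of variation of 12.1%, against 32.1% with corn oil, where replicates 3 and 4 stood above all others. For Dnaja1 the log2 fold change was -0.45 (SE 0.25, 95% interval -0.99 to 0.08, edgeR adjusted p 0.611), and -0.24 without corn oil replicate 4. Exons of Dnaja1 overlap those of 2 genes on the opposite strand, Gm6297 and Smu1, whose reads cannot be told apart in libraries that do not mark strand.

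Hsp90aa1, the stress-responsive cytosolic HSP90, ran from 276 to 488 normalised CPM with tamoxifen, with a median of 364. Hsp90aa1 levels with corn oil were 206, 250.5, 312 and 414 in replicates 1 to 4. Corn oil replicates 1 and 2 were below every tamoxifen library, and corn oil replicate 4 was above all tamoxifen libraries except replicate 1. For Hsp90aa1 the log2 fold change was 0.30 (SE 0.25, 95% interval -0.23 to 0.84, edgeR adjusted p 0.771). Dropping corn oil replicate 1 gave 0.16, and dropping corn oil replicate 4 gave 0.51.

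The mitochondrial chaperonin genes Hspd1 (HSP60) and Hspe1 (HSP10, its lid) share the divergent promoter printed above. Hspd1 ran from 151 to 332 normalised CPM with tamoxifen, with a median of 276. Hspd1 levels with corn oil were 173, 168, 186 and 356 in replicates 1 to 4. Tamoxifen replicates 1 to 3 lay between 315 and 332, corn oil replicate 4 was above all libraries, and the log2 fold change was 0.23 (SE 0.31, 95% interval -0.43 to 0.89, edgeR adjusted p 0.888). Dropping corn oil replicate 4 gave 0.56, and dropping tamoxifen replicates 1 to 3 gave -0.21.

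Hspe1 ran from 116 to 226 normalised CPM with tamoxifen, with a median of 137. Hspe1 levels with corn oil were 127, 123, 190.1 and 226 in replicates 1 to 4. Corn oil replicate 4 and tamoxifen replicate 1 had almost the same level, above all others. For Hspe1 the log2 fold change was -0.17 (SE 0.26, 95% interval -0.74 to 0.39, edgeR adjusted p 0.905), and 0.01 without corn oil replicate 4. Despite the shared promoter the ratio of Hspd1 to Hspe1 counts per kb was not constant. It was 0.418 to 0.834 with tamoxifen, with a median of 0.498, and 0.437, 0.437, 0.312 and 0.503 in corn oil replicates 1 to 4. Tamoxifen replicates 2 and 3 held the highest ratios, and the other 4 tamoxifen libraries lay between 0.418 and 0.528. Some exon ends of the 2 genes overlap on opposite strands, and 42.1% of 50-base stretches of Hspd1 and 22.8% of those of Hspe1 also occur in transcripts of other genes.

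**Figure D3:**
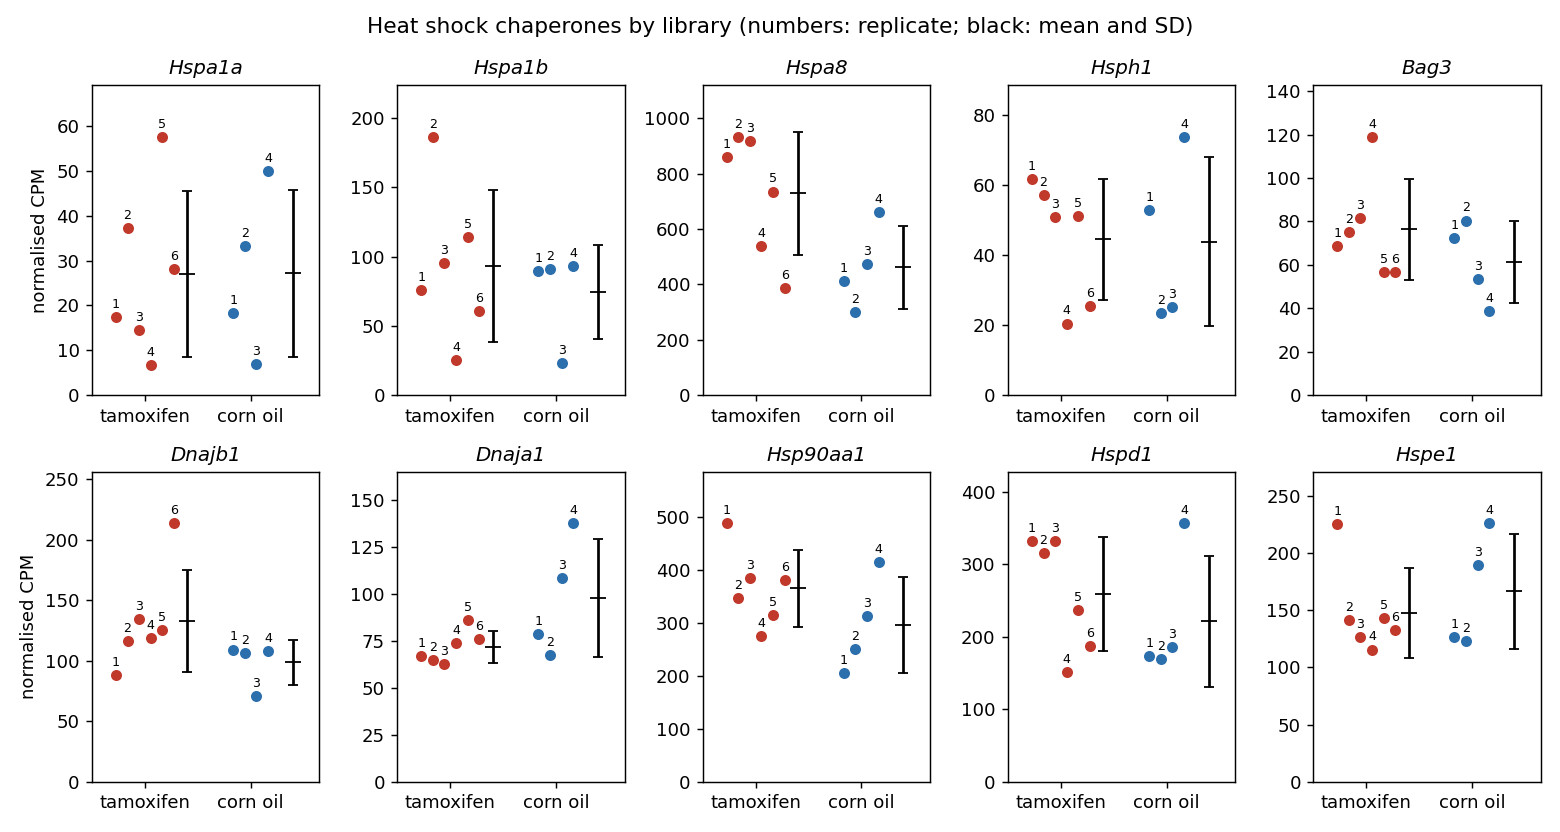
Normalised CPM of the 10 heat shock chaperones in each library, tamoxifen (red, n = 6) left and corn oil (blue, n = 4) right. Points are libraries numbered by replicate and black bars are mean and SD, each axis starting at 0. In every panel the groups overlap, and replicate 4 of tamoxifen and replicate 3 of corn oil are lowest for Hspa1a and Hspa1b.

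Several of the genes were high or low together in single libraries of either group. Corn oil replicate 4 held the highest level of 4 genes (Hsph1, Dnaja1, Hspd1 and Hspe1) and stood above the gene mean for 8 of 10. Tamoxifen replicate 2 was above it for 8 of 10 as well. Tamoxifen replicate 4 held the lowest level of 4 genes (Hspa1a, Hsph1, Hspd1 and Hspe1), and it and corn oil replicate 3 were above the gene mean for 2 of 10 each. The mean deviation of log2 CPM over the 10 genes ran from -0.48 (replicate 4) to 0.36 (replicate 2) with tamoxifen and from -0.49 (replicate 3) to 0.41 (replicate 4) with corn oil, so the ranges of the groups nearly coincide.

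**Figure D4:**
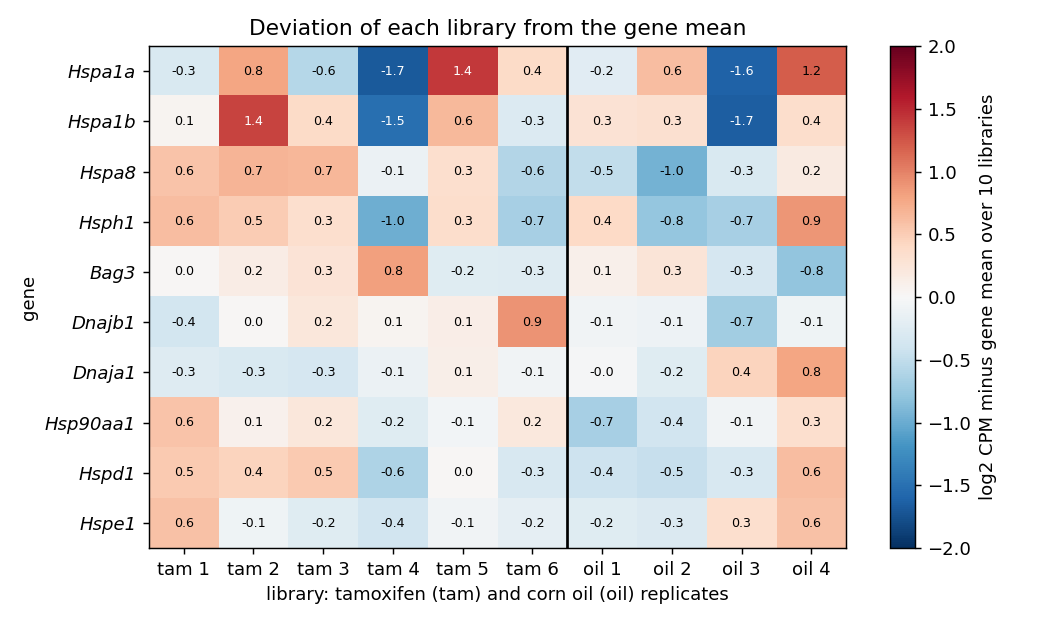
Log2 CPM of each gene in each library minus the gene's mean over the 10 libraries, tamoxifen (tam) left of the black line and corn oil (oil) right of it. Red is above and blue below the gene mean. Tamoxifen replicate 4 and corn oil replicate 3 are below the mean for 8 of 10 genes each, and corn oil replicate 4 above it for 8.

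The genes did not move as 1 block across libraries. Over 45 pairs of genes Pearson's r of log2 CPM over 10 libraries had a median of 0.13 and ran from -0.77 to 0.84. These values are a description, since libraries differ in depth and tamoxifen replicates 1 to 3 resemble each other. The pairs above 0.7 were Hsph1 with Hspd1 (0.84), Hspa8 with Hspd1 (0.83), Hspa1a with Hspa1b (0.82) and Hsp90aa1 with Hspd1 (0.77). Without tamoxifen replicates 1 to 3 these values were 0.80, 0.63, 0.93 and 0.68 over 7 libraries. The highest pair over those 7 was Dnaja1 with Hspe1 (0.98), and Dnaja1 with Hspd1 reached 0.83, against 0.59 and 0.08 over all 10. Which pairs moved together most thus depended on these tamoxifen libraries. Hspd1 and Hspe1, with their shared promoter, reached 0.58, and 0.81 over those 7. At the other end Bag3 and Dnaja1 were at -0.77, and Bag3 was lowest where Hspe1 was highest.

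By rule, the 5 other genes whose log2 CPM followed the mean deviation of the 10 most closely over the 10 libraries were Kctd11, Las1l, Mars, Hnrnpa1 and Plin2, with Pearson's r of 0.92 to 0.93, and of 0.90 to 0.97 without tamoxifen replicates 1 to 3. Among 12996 other tested genes 102 (0.785%) exceeded 0.8, and the median was 0.04. None of the 5 is a chaperone gene.

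The wider chaperone network was then read from 9 lists holding 79 other genes, all of which passed the filter on low counts. No gene passed the FDR in edgeR, 7 had an unadjusted p under 0.05 with a higher level (8.86%, against 4.43% of all tested genes) and 1 had one with a lower level, where 5.27% of all tested genes did. Of the 79, 53 had a log2 fold change above 0 and 26 below, with a median of 0.15. Among the list genes named below, DESeq2 called Hspa9 at an FDR of 0.05, and limma voom called Hspa9, Lonp1, Cdc37, Cct4, Cct6a, Gadd45b and Sdf2l1. These tools called 1.89% and 9.62% of all tested genes, and the genes named were picked for the smallest p of their list. The lists overlap in Fkbp4 and Chordc1, which were counted once here.

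Of 4 genes of heat shock transcription factors and their regulators 3 were above 0, with a median log2 fold change of 0.18 and none at an unadjusted p under 0.05. Hsbp1, which binds and restrains HSF1, averaged 322 ± 48.6 normalised CPM with tamoxifen and 380.3 ± 29.1 with corn oil (log2 fold change -0.24, edgeR adjusted p 0.767). Hsf2 stood at 2.34 ± 1.27 with tamoxifen and 1.90 ± 1.89 with corn oil, and its log2 fold change of 0.30 had an SE of 1.02.

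Of 13 genes of other HSP70s, exchange factors and further HSP70 partners (St13 and Stub1 among them) 6 were above and 7 below 0, with a median of -0.10. Hspa13, a microsomal HSP70, was at -0.76 (SE 0.37) and Hspa4l, an HSP110 relative, at 0.56 (SE 0.38), with edgeR adjusted p of 0.533 and 0.707. Without tamoxifen replicates 1 to 3 Hspa4l was at 0.14. Of 8 further J-domain genes 7 were above 0, with a median of 0.19. Dnajb4 stood at 12.6 to 49.8 normalised CPM with tamoxifen and 6.32 to 15.6 with corn oil. Its log2 fold change of 1.01 had an SE of 0.47 and an edgeR adjusted p of 0.513. Dnajb2, of the same class, was at 1.05 (SE 0.56, edgeR adjusted p 0.594).

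HSP90 and its co-chaperones had 8 of 12 genes above 0 and a median of 0.31. Unc45a, a chaperone of myosin heads that binds HSP90, stood at 29.8 to 50.4 normalised CPM with tamoxifen and 13.0 to 26.1 with corn oil. These groups did not overlap, and the log2 fold change was 0.98 (SE 0.33) with an edgeR adjusted p of 0.327. Cdc37, which brings kinases to HSP90, was at 0.51 (SE 0.24, edgeR adjusted p 0.535).

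Inside mitochondria the HSP70 gene Hspa9 (mortalin), which pulls imported proteins into the matrix, had a higher log2 fold change than Hspd1 or Hspe1, a difference between genes that was not tested. It ran from 259.6 to 671 normalised CPM with tamoxifen, averaging 502 ± 172. In corn oil it was 244, 148, 189 and 194 in replicates 1 to 4, averaging 194 ± 39.4. The groups did not overlap, though tamoxifen replicate 4 was close to corn oil replicate 1, and the log2 fold change was 1.38 (SE 0.30). The unadjusted edgeR p was 0.000593 and the adjusted p 0.148, so it did not pass the FDR of 0.05 in edgeR, while it did in DESeq2 and limma voom with adjusted p of 0.00220 and 0.00370. Without tamoxifen replicates 1 to 3 its log2 fold change was 0.89. Lonp1, the matrix protease, was at 0.99 (SE 0.33, edgeR adjusted p 0.327), and at 0.44 without those 3 libraries. Of 9 genes of mitochondrial folding and proteolysis 7 were above 0, with a median of 0.49. Their summed level was 1615 to 1722 normalised CPM in tamoxifen replicates 1 to 3 and 989 to 1133 in replicates 4 to 6, against 774 to 1129 with corn oil.

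Genes of TRiC, the cytosolic chaperonin of actin and tubulin, were above 0 in 8 of 8 cases with a median of 0.16. Their summed level was 3266, 3229 and 3409 normalised CPM in tamoxifen replicates 1 to 3 and 2440, 2623 and 1789 in replicates 4 to 6, against 1989 to 3017 with corn oil, so replicates 1 to 3 alone stood above the corn oil range. Cct4 was at 0.81 (SE 0.28) and Cct6a at 0.58 (SE 0.25), with edgeR adjusted p of 0.346 and 0.483. Of small heat shock proteins 5 of 5 were above 0, with a median of 0.42. Hspb8, the partner of Bag3, was low, at 0.784 to 11.5 normalised CPM with tamoxifen and 0 to 1.77 with corn oil, where 3 of 4 libraries held no read. Hspb6 averaged 69.6 ± 46.3 with tamoxifen and 52.1 ± 30.8 with corn oil, and its log2 fold change of 0.42 was -0.02 without tamoxifen replicate 6. That library also had the highest sum of smooth muscle and pericyte markers, 276 normalised CPM, against at most 69.8 with corn oil. The part of these cells in the value was not tested.

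Other genes listed as induced by HSF1 had 7 of 10 above 0 and a median of 0.31. Whether HSF1 acted on them in these tumours was not tested. Gadd45b, a stress sensor of growth arrest, averaged 134 ± 64.8 normalised CPM with tamoxifen and 57.7 ± 11.5 with corn oil (log2 fold change 1.21, SE 0.37, edgeR adjusted p 0.295). Hmox1, heme oxygenase, was at 1.18 (SE 0.70, edgeR adjusted p 0.649). Chaperones of the endoplasmic reticulum, which answer to other sensors, had 4 of 12 above 0 and a median of -0.24. Sdf2l1 stood at 37.3 to 115 normalised CPM with tamoxifen and 117 to 138 with corn oil, so the groups did not overlap. Its log2 fold change of -0.99 had an SE of 0.32 and an edgeR adjusted p of 0.318, and was -0.56 without tamoxifen replicates 1 to 3. Calr, calreticulin, was at -0.35 (SE 0.21, edgeR adjusted p 0.643).

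Immediate early genes, which respond to many stimuli within minutes, were read beside the chaperones. Of 19 tested, 15 were above 0 with a median of 0.23, against 49.3% of all tested genes above 0. In edgeR 4 had an unadjusted p under 0.05, all higher, against 4.43% of tested genes. Their summed level was 4169 to 6563 normalised CPM with tamoxifen and 3005 to 4280 with corn oil, highest in tamoxifen replicate 6. Dusp1, a MAP kinase phosphatase, averaged 187 ± 78.3 with tamoxifen and 69.0 ± 17.9 with corn oil (log2 fold change 1.44, SE 0.32, edgeR adjusted p 0.148). Klf6, a zinc finger factor, was at 1.25 (SE 0.35, edgeR adjusted p 0.242). DESeq2 and limma voom called both at an FDR of 0.05. The inducible pair Hspa1a and Hspa1b did not share this order of libraries. Tamoxifen replicate 4, with an immediate early sum of 5036, was lowest for Hspa1a and near the lowest for Hspa1b.

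**Figure D5:**
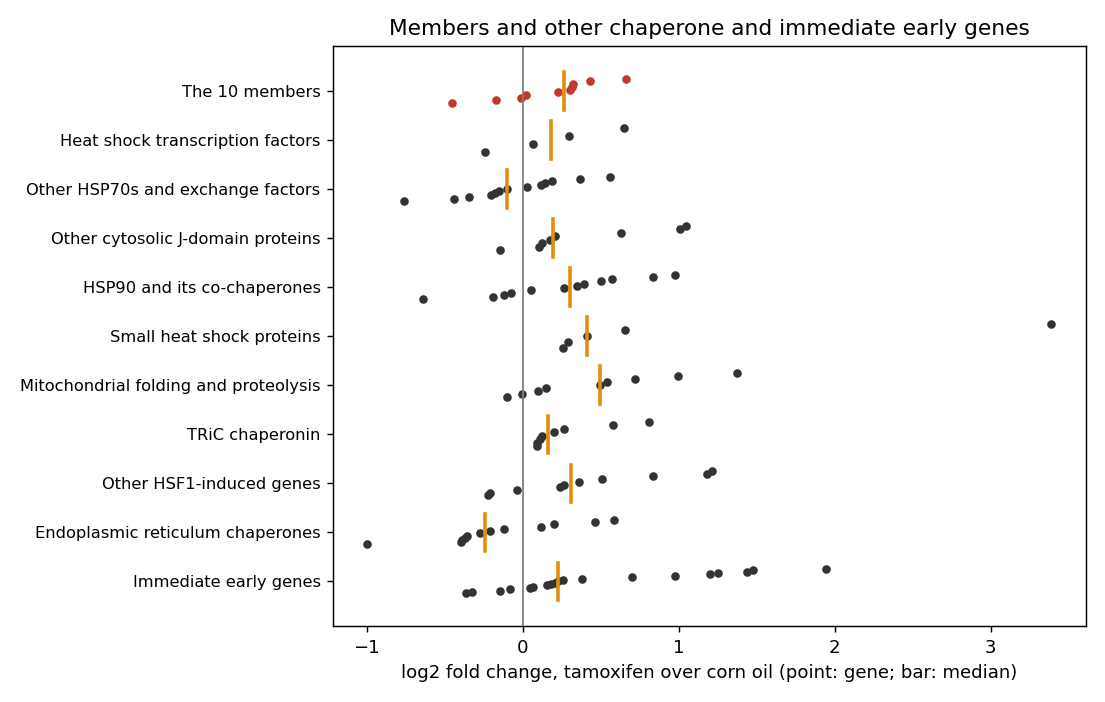
Log2 fold change, tamoxifen over corn oil, of the 10 heat shock chaperones (red, top) and of the genes of 10 other lists (black, 1 point per gene), with the median of each as an orange bar. The median is 0.27 for the 10 genes, 0.49 for mitochondrial folding and proteolysis and -0.24 for endoplasmic reticulum chaperones.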

How the data were processed

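The authors deposited a table of raw counts by gene symbol for 10 libraries, made per the submitters' processing notes with bcl2fastq 2.17, STAR 2.5.2b and featureCounts 1.5.0-p3 on mm10. The labels' protocols name SMART-seq v4 cDNA and Nextera XT libraries, which do not mark strand. The sources used here do not give the annotation, strand setting or treatment of multi-mapping reads. These counts went unaltered into edgeR 4.0.16 (R 4.3.3): filterByExpr (13006 genes kept), TMM factors, quasi-likelihood F test without covariates, Benjamini-Hochberg adjustment over all tested genes at an FDR of 0.05. The SE is the absolute log2 fold change over the square root of F, and 95% intervals use its t distribution. A prior count of 2 was used for log2 CPM. The test was tested on simulated data. Libraries were drawn there as independent, so libraries that share an animal were not covered. Gene positions, transcript lengths and 50-base stretches came from GENCODE M21 (GRCm38), and promoters from RefSeq (GRCm38.p6). Alternatives used DESeq2 1.42.0 and limma 3.58.1, other scalings, filters, covariates (detected genes and sex, read from Xist and Ddx3y) and leaving out libraries. Beside the 10 genes, those named were the 2 of smallest p in each list (log2 CPM averaging 0 or more), the 5 genes most alike and the 2 most abundant of a marker list. Genes and lists were chosen with earlier results of these data known.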

Additional observations from a re-analysis of the deposited data

Results flagged for a closer look

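In 11 of 66 groups of values examined, 1 library stood apart from the rest of its group, where chance gives about 1 in 20 independent groups. These groups share libraries and are not independent, so the 2 shares are not comparable. Values are normalised CPM. Tamoxifen replicate 6, the shallowest library, was highest for Dnajb1 (213, others 88.5 to 134), Hspb6 (161, others 28.9 to 62.8), Dusp1 (339.7, others 122 to 188) and Klf6 (2015, others 789 to 1106). Tamoxifen replicate 1 was highest for Hspe1 (226, others 116 to 143). In corn oil, replicate 3 was lowest for Hspa1b (23.1, others 89.4 to 93.4) and for Dnajb1 (70.8, others 106 to 109). Of the same group, replicate 4 was highest for Hspd1 (356, others 168 to 186) and for Cct4 (162, others 95.8 to 104) and lowest for Dnajb4 (6.32, others 15.1 to 15.6). In that group replicate 2 was highest for Hspb8 (1.77, others 0).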

How the results depend on the processing

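In edgeR and DESeq2 0 of the 10 genes passed the FDR of 0.05 under every alternative run (0 or 1 at an unadjusted p under 0.05), and limma voom called 1, Hspa8 (0.98). The number of all genes past the FDR was 5, and 243 with DESeq2, 1251 with limma voom, 18 at an FDR of 0.1, 21 with detected genes as a covariate, 0 with sex as a covariate (1196 at an unadjusted p under 0.05), 0 with tamoxifen replicates 1 to 3 summed to 1 sample (709) and 0 without them (602). It ran from 0 to 11 with 1 library left out. The log2 fold change of Hspa1a was 0.33 with limma voom, 0.20 with sex, 0.10 with replicates 1 to 3 summed and 0.18 without them, and ran from -0.35 to 0.47 with 1 library left out. Hsph1 was -0.19 with replicates 1 to 3 summed and -0.44 without them, and ran from -0.19 to 0.40. Without these 3, Hspa1b was -0.15, Hspd1 -0.21 and Hsf2 -0.0388, and the median of the 10 genes was -0.01. With 1 library left out Hspe1 ran from -0.33 to 0.0111, Hsf2 from -0.0712 to 1.23 and Hspb6 from -0.0209 to 0.70. The cause was not tested. RLE and upper-quartile scaling changed no sign among the 10. No paired analysis was possible because the labels give no replicate numbers or animals. Depth limits the low genes Hsf2 (5 to 111 counts per library) and Hspb8 (0 to 183).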
